A study of Mus musculus with 6 samples.

Results

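The genes described here make and sense prostaglandins and leukotrienes, the lipid mediators derived from arachidonic acid. They were chosen by symbol from a fixed list of 10 (Pla2g4a, Ptgs1, Ptgs2, Ptges, Hpgds, Ptger4, Alox5, Alox5ap, Lta4h and Ltc4s), and all 10 were found among the 16775 genes of the deposited table. The libraries are RNA-seq of osteoclasts, the bone-resorbing cells that form by fusion, grown from bone marrow macrophages of wild-type mice with 30 ng/ml M-CSF and 50 ng/ml RANKL in medium with 10% serum. One group received verapamil, a drug that blocks L-type calcium channels, and the other was the control with the same cytokines. Titles give day 5, whereas the protocol runs to day 7. The labels give neither the dose and timing of verapamil nor a vehicle, sex or age. They also leave it unsaid whether replicates are separate cultures or animals, so the p-values reflect the spread of these libraries only, which could be technical. Control replicates 1 and 3 (n = 2) were compared with verapamil replicates 1, 2 and 3 (n = 3). Control replicate 2 was not analysed here.

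Prostanoid synthesis begins when the cytosolic phospholipase A2 releases arachidonate from membranes. A cyclooxygenase turns it into prostaglandin H2, from which terminal synthases make prostaglandin E2, prostaglandin D2, prostacyclin or thromboxane. In the other branch, 5-lipoxygenase, helped by its membrane partner FLAP, makes leukotriene A4, which one enzyme converts to leukotriene B4 and another joins to glutathione to give leukotriene C4. In bone, prostaglandin E2 is known chiefly as a signal from osteoblasts and stromal cells that promotes osteoclast formation, in part through the receptor EP4, and leukotrienes have been described as stimulators of resorption.

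Verapamil-treated libraries held less RNA for both cyclooxygenases, for the receptor EP4, for FLAP and for leukotriene C4 synthase, and more for prostaglandin D2 synthase and leukotriene A4 hydrolase. In edgeR's quasi-likelihood test with Benjamini-Hochberg adjustment over all genes tested, 7 of the 10 genes passed an adjusted p of 0.05, 2 of them higher (Hpgds and Lta4h) and 5 lower (Ptgs1, Ptgs2, Ptger4, Alox5ap and Ltc4s). Without verapamil replicate 1, 2 or 3 the number was 6, 5 and 5, with 1485, 1565 and 1460 of all genes passing. In the main fit 25.4% of all 12619 genes tested passed, 9.99% as higher and 15.4% as lower. The median log2 fold change of the 10 was -0.94, against -0.01 over all genes. The 10 were chosen with earlier results of these data known, so these shares and medians describe them and are no test. In 9 of the 10 the verapamil values lay wholly to one side of the controls, as they did for 56.7% of all genes. Upper quartile scaling moved the median of all genes to -0.13 and the split of called genes from 1261 higher and 1939 lower to 915 and 2331, and called the same 7 members in the same directions.

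To show what surrounds start sites of these genes, the 250 bases before 1 RefSeq start are given for some of them. Both cyclooxygenase genes and Ltc4s were lower with verapamil, and Hpgds was higher. The windows of Ptgs1 and Hpgds lie inside the gene spans given below, before a start within the gene. All windows are on GRCm38.p6, each read on its gene's own strand, 5′ to 3′. The capitals mark GGAAA, the core letters bound by NFAT, the calcium-dependent factor of osteoclasts, and GAGGAA, the core of the PU box of myeloid genes.
Ptgs1 (chr2:36230176-36230425, plus strand): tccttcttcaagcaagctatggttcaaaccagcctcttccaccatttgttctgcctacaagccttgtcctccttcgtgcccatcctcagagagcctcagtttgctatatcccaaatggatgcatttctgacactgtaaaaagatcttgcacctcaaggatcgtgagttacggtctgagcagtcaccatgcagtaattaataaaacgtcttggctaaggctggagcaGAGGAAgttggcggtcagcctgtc
Ptgs2 (chr1:150099781-150100030, plus strand): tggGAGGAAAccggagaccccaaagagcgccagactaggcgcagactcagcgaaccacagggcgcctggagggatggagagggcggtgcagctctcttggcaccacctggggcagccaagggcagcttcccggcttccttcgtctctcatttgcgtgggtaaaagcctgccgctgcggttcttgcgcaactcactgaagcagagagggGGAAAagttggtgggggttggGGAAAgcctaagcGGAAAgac
Ltc4s (chr11:50238533-50238782, minus strand): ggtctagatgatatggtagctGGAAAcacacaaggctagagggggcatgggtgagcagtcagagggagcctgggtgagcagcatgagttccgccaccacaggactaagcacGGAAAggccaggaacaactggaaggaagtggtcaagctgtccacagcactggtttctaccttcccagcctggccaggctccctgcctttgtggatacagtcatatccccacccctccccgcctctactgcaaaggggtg
Hpgds (chr6:65144731-65144980, minus strand): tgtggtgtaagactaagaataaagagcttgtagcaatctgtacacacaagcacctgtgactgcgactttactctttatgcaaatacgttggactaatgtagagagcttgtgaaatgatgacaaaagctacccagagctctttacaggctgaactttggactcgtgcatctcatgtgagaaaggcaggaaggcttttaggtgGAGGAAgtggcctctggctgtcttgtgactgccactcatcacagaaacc

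The Ptgs2 window held 4 copies of GGAAA, the first of which overlaps a GAGGAA. The Ltc4s window held 2 copies of GGAAA, and the windows of Ptgs1 and Hpgds held 1 GAGGAA each and no GGAAA. Among 32851 RefSeq promoter windows of the same length, searched on both strands, 55.6% held GGAAA, 1.59% held at least 4 copies of it, and 23.3% held GAGGAA. The 4 is the count of the Ptgs2 window, the highest among these genes, so the 1.59% is no test of that window. Windows were found for 9 of the 10 genes (all but Alox5ap). The window of Ptges and the second window of Pla2g4a also lie inside the gene span. GGAAA stood in 4 of the 9, namely Ptgs2, Ptger4 and Ltc4s, which were lower, and Lta4h, which was higher. The Lta4h window held it at several places. GAGGAA stood in 6, with genes that were higher, lower and not called among them. TATAAA (12.4% of all windows) was found in 1 of the 9, in the second window of Pla2g4a, while TGACGTCA, the cAMP response element (1.55%), and TGANTCA, the AP-1 site (6.75%), were found in 0. A match describes letters in the window and is not evidence of a bound site.

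**Figure D1:**
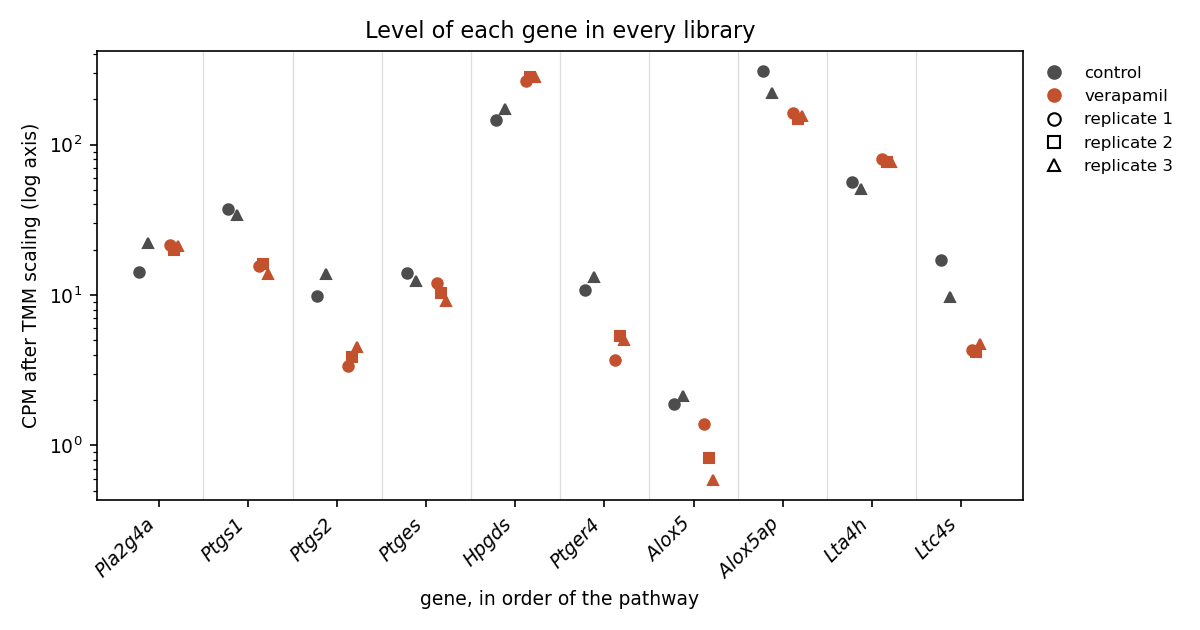
Level of each of the 10 genes in every library, as CPM after TMM scaling on a log axis, in order of the pathway. Grey symbols are the 2 control libraries and orange symbols the 3 verapamil libraries, with the symbol shape giving the replicate. The groups are apart for every gene but Pla2g4a, whose verapamil values of 19.9 to 21.4 CPM lie between the controls at 14.3 and 22.1 CPM.

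Levels below are CPM, in which each count is divided by the TMM-scaled total of its library. Pla2g4a, the phospholipase that releases arachidonate, is Entrez gene 18783 on chromosome 1 (149829618 to 149961290). It had 14.3 and 22.1 CPM in control replicates 1 and 3 and 21.4, 19.9 and 21.0 CPM in verapamil replicates 1, 2 and 3. The verapamil libraries lay close together and inside the range of the controls. The log2 fold change was 0.19 with a 95% interval of -0.27 to 0.66, and it did not pass the test (adjusted p = 0.483). The value rested on which control was used, being -0.084 without control replicate 1 (adjusted p = 0.544) and 0.54 without control replicate 3 (adjusted p = 0.00203). In each of those fits 1 control remained, which is assumed to vary like the verapamil libraries.

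Both cyclooxygenase genes fell. Ptgs1 encodes COX-1, usually the constitutive form, and is gene 19224 on chromosome 2 (36216742 to 36258593). Its levels were 37.2 and 34.2 CPM in the controls and 15.6, 16.0 and 13.7 CPM with verapamil. The controls differed little and lay far above every verapamil library, and the log2 fold change of -1.24 (SE 0.117, adjusted p = 0.00128) had the smallest p of the 10 genes. Ptgs2 encodes COX-2, the form induced by cytokines and growth factors, and is gene 19225 on chromosome 1 (150100031 to 150108234). It had 9.89 and 13.7 CPM in the controls and 3.34, 3.87 and 4.49 CPM with verapamil. The lowest control stood above the highest verapamil library, a difference of -1.60 on the log2 scale (SE 0.204, adjusted p = 0.00335). Pla2g4a and Ptgs2 are neighbours, separated by 138.74 kb that hold 0 other protein-coding RefSeq genes. Ptgs2 was called lower and its neighbour was not called, but the difference between them was not tested. Per kb of exon, Ptgs1 stood at 2.95 to 4.43 times the level of Ptgs2 in the controls and at 3.60 to 5.51 times with verapamil. These ranges overlap (exact two-sided permutation test of the log2 ratio, p = 0.4).

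The terminal synthases of prostaglandins E2 and D2 are described next. Ptges, the inducible microsomal prostaglandin E synthase, is gene 64292 on chromosome 2 (30889471 to 30931020). It had 14.1 and 12.3 CPM in the controls and 12.0, 10.3 and 9.12 CPM with verapamil. The groups did not overlap, but the highest verapamil library came close to the lower control. The log2 fold change of -0.33 (95% interval -0.71 to 0.05) did not pass (adjusted p = 0.168), and passed only without control replicate 3 (log2 -0.42, adjusted p = 0.0392). Hpgds, the glutathione-dependent prostaglandin D synthase of blood cells, is gene 54486 on chromosome 6 (65117293 to 65144981). It rose from 145 and 174 CPM in the controls to 267, 281 and 283 CPM. Every verapamil library lay well above both controls, and the change was 1.73-fold (log2 0.79, SE 0.114, adjusted p = 0.00492). Per kb of exon, Hpgds stood at 6.31 to 8.65 times Ptges in the controls and 13.6 to 19.0 times with verapamil. With the longest transcript as length these ratios were 1.53 times as large, at 9.67 to 13.3 and 20.8 to 29.0. The ranges do not overlap with either length, and the exact two-sided permutation test gave p = 0.2. That is the smallest that 2 against 3 libraries allow when the one-sided p is doubled, as here.

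Ptger4 encodes EP4, a receptor for prostaglandin E2 that raises cAMP. It is gene 19219 on chromosome 15 (5233399 to 5244187), and other genes overlap 16.5% of its exon bases, mostly the pseudogene Gm15937 on the opposite strand. Since the labels do not say whether counting used strand, reads there cannot be assigned to one of the genes. Ptger4 had 10.7 and 13.2 CPM in the controls and 3.69, 5.32 and 4.98 CPM with verapamil. All verapamil libraries were below both controls (log2 -1.36, SE 0.197, adjusted p = 0.00508).

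In the leukotriene branch, the lipoxygenase itself was low while its partner was the highest of the 10 genes per kb of exon in both groups. In CPM the partner was highest in the controls, and Hpgds was highest with verapamil. Alox5, 5-lipoxygenase, is gene 11689 on chromosome 6 (116410071 to 116461178). It was at 1.89 and 2.13 CPM in the controls and 1.38, 0.826 and 0.592 CPM with verapamil. These values rest on 92 control counts against 56 verapamil counts. After scaling the ratio was 0.463, with an exact 95% binomial interval of 0.326 to 0.653 that covers counting error only. All verapamil libraries were below the controls, but the log2 fold change of -1.10 did not pass after adjustment (SE 0.361, adjusted p = 0.0707). It passed without verapamil replicate 1 (log2 -1.50, adjusted p = 0.0471).

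Alox5ap encodes FLAP, which presents arachidonate to 5-lipoxygenase. It is gene 11690 on chromosome 5 (149265004 to 149288153), with 13.3% of its exon bases shared with the antisense gene Gm19719. Levels were 308 and 222 CPM in the controls and 162, 149 and 155 CPM with verapamil. The controls differed from each other more than the verapamil libraries did, yet both lay above all of them (log2 -0.77, SE 0.15, adjusted p = 0.0143). The call did not hold when verapamil replicate 1, 2 or 3 was omitted (adjusted p = 0.0623, 0.067 and 0.0685), with log2 fold changes of -0.80, -0.75 and -0.77. Those fits have fewer residual degrees of freedom, as do the fits without a control, and they keep the spread between the 2 controls. Why the call was lost was not tested.

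The 2 enzymes that use leukotriene A4 moved in opposite directions. Lta4h, the hydrolase that makes leukotriene B4, is gene 16993 on chromosome 10 (93453396 to 93484896). It rose from 56.7 and 50.9 CPM to 80.7, 76.4 and 76.5 CPM, a 1.45-fold change with groups well apart (log2 0.53, SE 0.102, adjusted p = 0.0135). Its call too was lost without any one of the verapamil replicates 1, 2 and 3 (adjusted p = 0.0788, 0.072 and 0.0768). Ltc4s, the synthase of leukotriene C4, is gene 17001 on chromosome 11 (50236461 to 50238532) and overlaps over 26.4% of its exon length with the antisense gene Gm26542. It had 17.1 and 9.69 CPM in the controls and 4.33, 4.18 and 4.73 CPM with verapamil. The controls were far apart, and the lower one was still above every verapamil library (log2 -1.60, SE 0.252, adjusted p = 0.0069). With control replicate 1 omitted the estimate was -1.13, and with control replicate 3 omitted -1.95, past the threshold in both. Per kb of exon, Lta4h stood at 0.552 and 0.873 times Ltc4s in the controls and at 3.10, 3.04 and 2.68 times with verapamil. Per kb of longest transcript it was 0.737 and 1.17 times in the controls, so that there the order of the pair differed between the controls. The ratio thus moved by 2.08 on the log2 scale with no overlap (exact two-sided permutation test, p = 0.2, again the smallest with the one-sided p doubled). The gene pairs set against each other here and above were chosen after their values were seen. In all 4 pairs were computed, and the last, Alox5ap over Alox5, had overlapping ranges (300.4 to 472 and 340.2 to 757, exact permutation p = 0.4). No p adjusted over the 4 could fall below the 0.2 of the smallest.

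**Figure D2:**
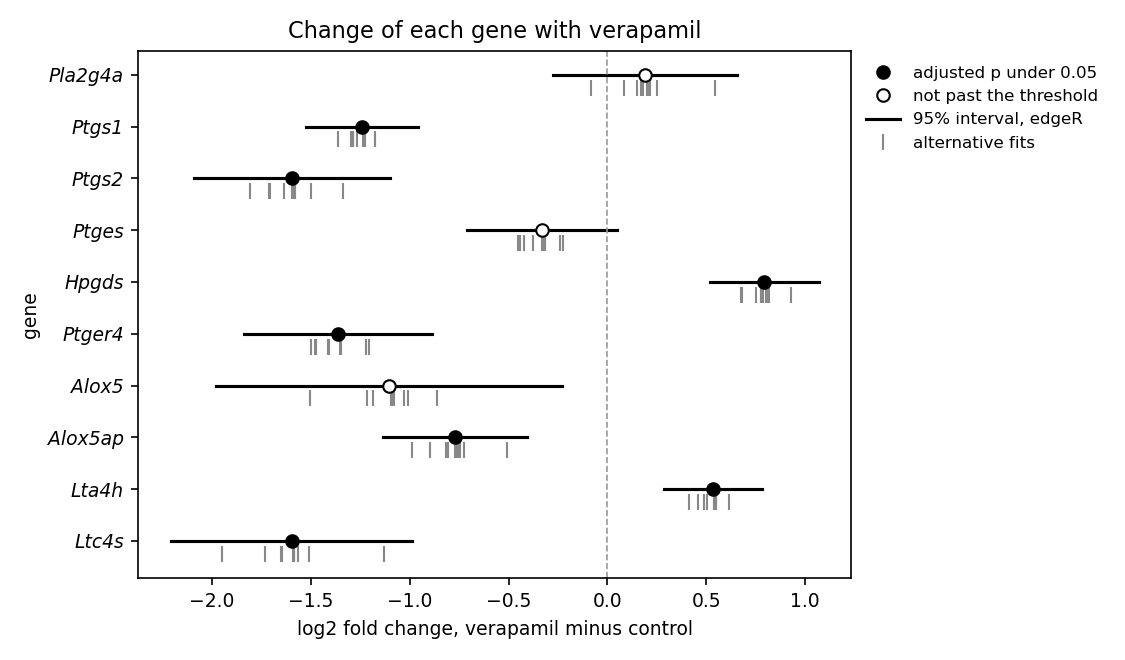
Log2 fold change of each gene, verapamil minus control (points), with its 95% interval from edgeR (lines). Filled points passed an adjusted p of 0.05, and grey ticks below each point are the alternative fits. The 7 filled points keep their side of 0 in all fits, from -1.95 to 0.93, while the ticks of Pla2g4a reach from -0.084 to 0.54.

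Levels of different genes were compared per kb of exon (union of exons, GENCODE M21). In the controls Alox5ap was highest at 187 ± 43.0 CPM per kb (SD, n = 2), followed by Hpgds at 24.8 ± 3.16. Ltc4s (13.2 ± 5.15), Ptgs1 (9.19 ± 0.534) and Lta4h (8.82 ± 0.671) came next and did not differ beyond their spread. Ptges (3.35 ± 0.319), Pla2g4a (2.85 ± 0.865) and Ptgs2 (2.58 ± 0.589) overlapped as well, with Ptger4 at 1.80 ± 0.265 and Alox5 last at 0.490 ± 0.0425. With verapamil (n = 3) the first pair kept its order, at 109 ± 4.62 and 43.1 ± 1.34 CPM per kb, and Lta4h followed at 12.8 ± 0.399. Ltc4s at 4.35 ± 0.280 and Ptgs1 at 3.89 ± 0.314 stood near Pla2g4a at 3.25 ± 0.119. Ptgs2 (0.852 ± 0.125) and Ptger4 (0.701 ± 0.129) did not differ beyond their spread, and Alox5 was again lowest at 0.227 ± 0.0982.

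**Figure D3:**
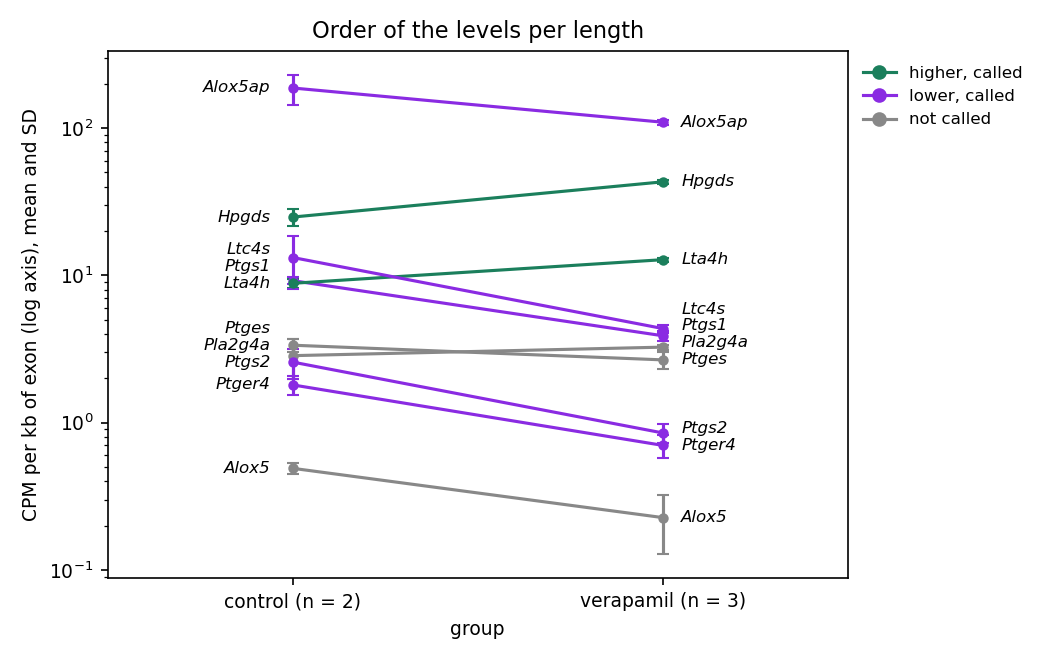
Mean level of each gene in CPM per kb of exon on a log axis, with SD, in the controls (left, n = 2) and with verapamil (right, n = 3). Green lines were called higher, purple lines lower and grey lines were not called. The lines of Lta4h (8.82 to 12.8 CPM per kb) and Ltc4s (13.2 to 4.35) cross.

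Other genes of the pathway, and a list of cAMP-responsive genes, were read from lists ordered by role. Both kinds are counted together as pathway genes. In all 81 had a row, and 57 passed the filter on low counts and were tested, of which 1 was higher and 22 lower, with a median log2 fold change of -0.33. That is 40.4% called, against 25.4% of all genes tested, of which 9.99% were higher and 15.4% lower. Without the cAMP-responsive list 48 were tested, with 1 higher and 19 lower, and 41.7% were called. The lists were chosen with earlier results of these data known, so the contrast with all genes is no test of the pathway. Over all lists 15 of 56, 14 of 57 and 15 of 56 were called without verapamil replicate 1, 2 or 3. In those fits 1485 of 12548, 1565 of 12571 and 1460 of 12541 of all genes were called.

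Among 13 tested phospholipases and genes of arachidonate release or reuptake 0 were higher and 3 lower (median 0.06), and the 23.1% called is near the 25.4% of all genes. Pla2g2d, a secreted phospholipase of lymphoid tissue, fell from 4.57 ± 1.51 to 1.47 ± 0.469 CPM (log2 -1.64, adjusted p = 0.0172), and its call was lost without verapamil replicate 2 or 3. Lpcat2, an acyltransferase that makes platelet-activating factor, fell by 0.64 on the log2 scale (adjusted p = 0.00497). Pla2g7, the hydrolase that degrades that factor, fell by 0.41 (adjusted p = 0.0196), a call lost without any one of the verapamil libraries.

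Of 8 other prostanoid synthases 4 were lower and 0 higher (median -0.63), 50% called against 25.4% of all genes. Tbxas1, thromboxane synthase, went from 131 and 117 CPM in the controls to 74.4, 72.1 and 67.4 CPM (log2 -0.80, SE 0.103, adjusted p = 0.00342). Akr1b8, an aldo-keto reductase, fell from 145 ± 27.2 to 60.7 ± 4.39 CPM (log2 -1.25, adjusted p = 0.00223). Prxl2b, a prostamide and prostaglandin F synthase, fell by 0.72 (adjusted p = 0.0453), and its call was lost without any one of the verapamil libraries. Ptgis, prostacyclin synthase, rested on 46 and 21 counts (log2 -1.51, adjusted p = 0.0382). Its call was lost in 6 of 10 alternatives, among them DESeq2's Wald test and the fits without control replicate 1 or any one verapamil library.

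Of the 3 tested prostanoid receptors beside Ptger4, 1 rose and 0 fell, 33.3% called against 25.4% of all genes. Ptgir, the prostacyclin receptor, went from 25.2 and 29.9 CPM in the controls to 47.6, 47.9 and 52.2 CPM (log2 0.84, SE 0.125, adjusted p = 0.00565). Its groups were well apart, and it was the only gene of these lists called higher in this fit. DESeq2's Wald test on the same 5 libraries called 3 higher, Ptgir, Acsl4 (log2 0.52, adjusted p = 0.047) and Ptgr2 (log2 0.34, adjusted p = 0.0496). Ptger2, the other receptor for prostaglandin E2 that raises cAMP, had 15.9 and 14.2 CPM in the controls and 16.2, 15.6 and 15.4 CPM with verapamil, so that the groups overlapped (log2 0.07, adjusted p = 0.678).

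Of 6 genes of prostanoid breakdown and transport 3 were lower and 0 higher (median -0.25), 50% called against 25.4% of all genes. Slco2a1, the prostaglandin transporter, fell from 13.1 ± 4.11 to 4.26 ± 0.383 CPM (log2 -1.62, adjusted p = 0.00406). Hpgd, the dehydrogenase that inactivates prostaglandins, fell by 0.79 (adjusted p = 0.0205) and Ptgr1, a prostaglandin reductase, by 0.46 (adjusted p = 0.0413). Both of those calls were lost without any one of the verapamil libraries, and that of Ptgr1 also with no filter on low counts.

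Of 11 tested genes that process leukotrienes further 5 were lower and 0 higher (median -0.47), 45.5% called against 25.4% of all genes. Dpep1 and Ggt5 encode cell-surface peptidases, a dipeptidase and a gamma-glutamyl transferase that trim leukotriene C4 to D4 and E4. Dpep1 fell from 1.86 ± 0.273 to 0.201 ± 0.0553 CPM (85 and 12 counts, log2 -3.18, adjusted p = 0.00183) and Ggt5 from 5.67 ± 1.01 to 1.06 ± 0.384 CPM (log2 -2.41, adjusted p = 0.00344). Cyp4f18, which oxidises leukotriene B4, fell from 22.2 ± 5.30 to 6.65 ± 0.463 CPM (log2 -1.74, adjusted p = 0.00154). Dpep2, a related dipeptidase, fell by 0.75 (adjusted p = 0.0135), a call lost without any one of the verapamil libraries, and another gene model overlaps 44% of its exon bases. Of the 2 tested genes among other lipoxygenases and soluble epoxide hydrolase, Ephx2, the hydrolase, fell by 1.53 (adjusted p = 0.0025). The other, Alox15, had 0.782 ± 0.343 and 0.630 ± 0.437 CPM (adjusted p = 0.717).

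Of 5 tested leukotriene and related receptors 3 were lower and 0 higher (median -0.94), 60% called against 25.4% of all genes. Cysltr1, a receptor for cysteinyl leukotrienes, fell from 12.6 ± 2.52 to 6.55 ± 0.373 CPM (log2 -0.94, adjusted p = 0.00976). Gpr132, a receptor for oxidised fatty acids and other ligands, fell from 34.9 ± 0.402 to 17.4 ± 0.926 CPM (adjusted p = 0.0017). Fpr2, the formyl peptide and lipoxin receptor, had 66 control counts against 9 with verapamil (log2 -3.22, adjusted p = 0.00881). Without verapamil replicate 1, which held 6 of those 9 counts, the estimate was -4.16 (adjusted p = 0.0155). Of 9 tested cAMP-responsive genes 3 were lower and 0 higher (median -0.79). The 33.3% called is near the 25.4% of all genes. Fos fell by 2.78, Crem by 0.83 and the phosphodiesterase Pde4b by 0.79 (adjusted p = 0.000472, 0.00418 and 0.0243), the last lost without any one of the verapamil libraries.

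**Figure D4:**
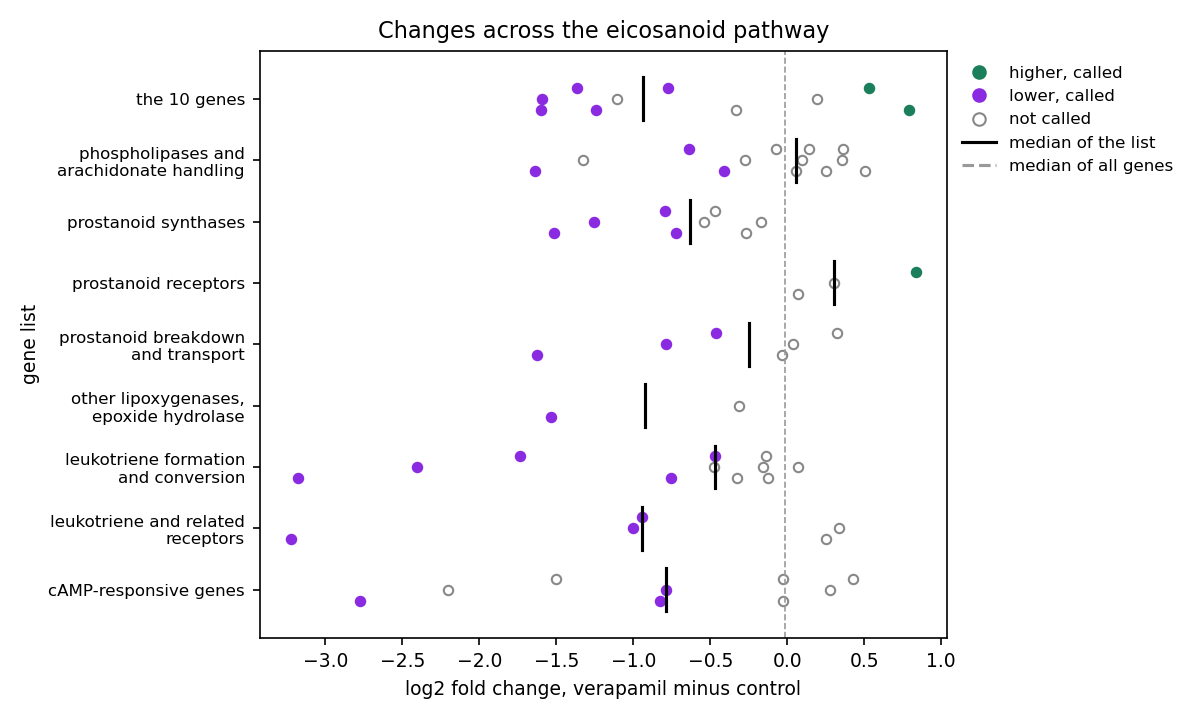
Log2 fold change, verapamil minus control, of every tested gene by list (points), with the list's median (black bar) and the median of all genes (dashed line). Green and purple points were called higher and lower, and open points were not called. Of the 57 tested genes outside the 10, Ptgir (0.84) is the only green point and 22 are purple.

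By the likeness of their values over the 5 libraries, the genes nearest to the 3 called members with the largest changes were named, from at least 2375 genes of similar mean level each. The measure was the root mean square difference of log2 CPM after centring each gene on its own mean. Nearest to Ltc4s were Ier5l (0.0937) and Nbl1 (0.117), nearest to Ptgs2 were Bcar1 (0.0905) and Ahr (0.107), and nearest to Ptger4 were Gpr35 (0.0852) and Nfkbiz (0.0888). All 6 of these genes were called lower. The libraries of a group share their treatment, so this likeness mostly restates the group difference.

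Several kinds of cell can express these genes, and their markers moved with the groups. In bulk RNA, fewer cells of a type and less RNA per cell cannot be told apart. Over all genes tested 9.99% were called higher and 15.4% lower. Osteoclast markers were present (summed level 7025 to 7703 CPM in the controls and 3304 to 3454 CPM with verapamil), with 7 of 10 lower and 1 higher. The higher one, Atp6v0d2, went from 522 ± 43.1 to 1028 ± 16.9 CPM. Itgb3 (log2 0.05) and Nfatc1 (log2 -0.15) were not called. Of 12 macrophage markers 9 were lower and 1 higher (sums 7787 to 8592 and 4538 to 4607 CPM), and of 10 tested stromal and osteoblast markers 9 were lower and 0 higher (sums 1041 to 1234 and 453 to 471 CPM). Of 7 tested dendritic cell markers 6 were lower and 1 higher (sums 137 to 168 and 132 to 137 CPM). The higher one, Itgax, made up most of the verapamil sum (57.6 ± 10.9 and 122 ± 2.94 CPM), while the antigen-presentation gene Cd74 fell from 61.2 ± 25.4 to 5.94 ± 0.699 CPM. The megakaryocyte and platelet list had 3 of 4 lower and 0 higher (sums 24.1 to 37.5 and 3.99 to 4.34 CPM). Mast cells, which are rich in Hpgds, Alox5 and Ltc4s, were represented by 5 of 10 listed markers (sums 1.58 to 1.93 and 4.43 to 5.27 CPM). Cma1 was at 0 in all libraries and 2 were tested, Kit higher and Gata2 lower. Kit made up most of the mast cell sum with verapamil (0.984 ± 0.0571 and 4.69 ± 0.527 CPM), whereas Gata2 fell from 0.572 ± 0.145 to 0.166 ± 0.0541 CPM. Basophil and eosinophil markers had 2 of 3 lower and 1 higher (sums 12.7 to 13.0 and 5.16 to 6.01 CPM), neutrophil markers 1 of 2 lower and 0 higher (sums 4.23 to 8.49 and 2.90 to 3.41 CPM) and endothelial markers 2 of 3 lower and 1 higher (sums 7.15 to 10.5 and 28.0 to 33.7 CPM). Kdr made up most of the endothelial sum with verapamil (4.17 ± 1.71 and 30.1 ± 2.57 CPM), whereas Pecam1 fell from 2.31 ± 0.473 to 0.289 ± 0.288 CPM and Emcn from 1.69 ± 0.278 to 0.451 ± 0.229 CPM. The part of such cells in the changes above was not tested. The libraries held 20202340 to 21494523 estimated counts each.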

How the data were processed

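The authors deposited estimated counts of reads for each gene, which the column headers call read counts. They appear not to be scaled to a common total, since library totals differ. Per library 62.3% to 70% of values are not whole, which does not tell estimated counts from scaled ones. The submitters' processing notes name the builds GRCm38 and mm10, and no source used here gives the aligner, the counter or the annotation. The values were rounded before use. Libraries were scaled by TMM with edgeR 4.0.16 (R 4.3.3). Low genes were removed with its default filter (minimum count 10, total 15), and a quasi-likelihood model of the group alone was fitted, with 3 residual and 3.28 prior degrees of freedom. Genes were called at a Benjamini-Hochberg adjusted p under 0.05 over the 12619 genes tested. Standard errors are the absolute log2 fold change over the square root of the F statistic, and 95% intervals use them without adjustment. The fit was tested on simulated data in which both groups had the same spread, unlike the libraries here. The pathway and marker lists, like the 10 genes, were chosen with earlier results of these data known. The genes named are all 10 members, up to 4 called genes per pathway list by size of change, and the 2 nearest profiles of 3 members. The rule also allows, per marker list, genes at 0 throughout and the 2 with the highest mean level. Ptger2, Alox15, Acsl4, Ptgr2, Emcn, Cyp4f16, Nr4a1, Nr4a2, Atp6v0d2, Itgb3 and Nfatc1 were added after their values were seen. Alternatives were upper quartile and RLE factors, no filter, a minimum count of 50, DESeq2 1.42.0, the replicate number as a block, and leaving out each library. Gene positions are from RefSeq on GRCm38.p6, and exon lengths and shared exon bases from GENCODE M21 on the same assembly. Variation between the libraries of each group exceeded counting noise, by 2.00 to 4.08 times between verapamil libraries and 32.9 times between the 2 controls.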

Additional observations from a re-analysis of the deposited data

How the results depend on the processing

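Under the 11 alternatives the 10 genes gave 109 log2 fold changes, of which 98 kept their direction and their side of the threshold, 6 were no longer past it, 4 came past it and 1 reversed. The reversal was Pla2g4a without control replicate 1 (-0.084, against 0.54 without control replicate 3). Leaving out one library at a time gave 5 to 9 called members, 14 to 37 other pathway genes and 1460 to 7808 of all genes. Fits without a control have 1 control left, so their p-values hold no spread between controls. Ptgs1, Ptgs2, Ptger4, Hpgds and Ltc4s stayed past the threshold in all 11 (highest adjusted p = 0.0405). Of the 23 called pathway genes 14 did so in every alternative that tested them, and 0 changed sign. Replicate numbers are shared between the groups, but the labels do not say what they mark, and the 2 pairs deviated together weakly (r = 0.186 across genes). With the replicate block 8 members, 23 pathway genes and 3317 genes were called. Alox5 was added (log2 -1.08, adjusted p = 0.04). Among the pathway genes Acsl4 (higher), Nr4a1 and Nr4a2 (lower) were added and Pla2g7, Ptgr1 and Cyp4f16 lost. The block fit has fewer residual degrees of freedom than the main one. Verapamil replicate 2 stands alone in its block and adds nothing to the group difference. With the longest transcript as length, control levels were 12.5 (Ptgs1), 3.18 (Ptger4), 41.0 (Hpgds), 0.562 (Alox5), 18.7 (Ltc4s), 16.7 (Lta4h) and 5.27 (Pla2g4a) CPM per kb, which placed Lta4h above Ptgs1, Pla2g4a above Ptges and Ptger4 above Ptgs2. With verapamil, Pla2g4a moved above Ptgs1 and Ptger4 above Ptgs2. Alox5 was not tested with a minimum count of 50.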
